A study of Danio rerio with 8 samples.

Results

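The comparison described here is the difference between the responses of 2 sorted brain cell fractions to interleukin-4 (IL4). It used all 8 of the 8 libraries of the series, by RNA sequencing of adult zebrafish brain. All fish carried Tg(her4.1:EGFP), a reporter in which the her4.1 promoter drives green fluorescent protein (GFP), and were 6 months old (6 mpf). Brains had received IL4 peptide or phosphate-buffered saline (PBS), were dissected 24 hours post injection (hpi), and were dissociated and sorted by flow cytometry. The 4 groups were IL4 GFP-positive, PBS GFP-positive, IL4 GFP-negative and PBS GFP-negative, with 2 libraries each. The labels do not say whether these libraries came from separate fish or from pools, so p-values measure only the spread between these libraries, which may be technical. The design text of the series names other injections, another time and another number of replicates, and the labels of the libraries were followed.

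The GFP-positive fraction is defined by GFP signal at sorting, not by a direct reading of promoter activity. The GFP-negative fraction holds the other sorted cells of the dissociated brain. In the adult fish brain, her4.1 is a Notch target gene that marks radial glia, which act as neural stem and progenitor cells and line the ventricles. After PBS, 41 radial glial marker genes summed to 21092 to 21421 CPM (counts adjusted for library size) in GFP-positive and 3120.4 to 3233 CPM in GFP-negative libraries. Genes listed as markers of other cell types also had counts in GFP-positive libraries, with 48 microglial genes at 3171 to 3200.1 CPM and 18 oligodendrocyte genes at 2126 to 2204 CPM. Which cells these transcripts came from was not tested. Library totals ran from 19242851 to 26582271 counts, and 23243 to 25404 genes had a count.

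IL4 binds a receptor at the cell surface that is formed by the IL4 receptor alpha chain with a partner chain. Janus kinases at the receptor then phosphorylate the transcription factor STAT6, which enters the nucleus, and SOCS proteins dampen the signal. The title of the series links IL4 to neural stem cell plasticity, to serotonin and its HTR1 receptors, and to BDNF and the receptor NGFRA.

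The 2 fractions responded differently to IL4 at 3843 of 20508 genes tested (18.7%). Here a response is the log2 fold change of IL4 against PBS within a fraction, and the difference is the response in GFP-positive minus that in GFP-negative cells. A gene passed at an edgeR quasi-likelihood adjusted p under 0.05 (Benjamini-Hochberg over all genes tested). The difference was above 0 at 2355 genes (11.5%) and below 0 at 1488 (7.26%). At 1043 and 301 of them it was at least 2-fold. This split depends on scaling, since DESeq2's size factors in edgeR (RLE) gave 1941 above and 1850 below 0. Without IL4 GFP-negative replicate 1 the total was 2515, and without IL4 GFP-negative replicate 1 or 2 the count below 0 was 947 or 985. Within GFP-positive cells 2847 genes rose (13.9%) and 3042 fell (14.8%), and within GFP-negative cells 1853 rose (9.04%) and 3163 fell (15.4%). The responses of the 2 fractions share no library, and over all genes tested they correlated at a Pearson r of 0.27 and a Spearman rho of 0.25 (genes are not independent replicates). The shares over all genes tested given in this paragraph are the background for the counts of every gene list below. Because these are bulk samples, fewer cells of a type and less RNA per cell cannot be told apart in any value below.

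Genes that passed for the difference fell into classes by their responses. In 284 genes (1.38%) the level after IL4 rose in GFP-positive and fell in GFP-negative cells, and in 170 (0.829%) the reverse held. Both IL4 libraries lay beyond both PBS libraries in each fraction at 283 of the 284 and 169 of the 170. In GFP-positive cells only, 763 genes rose (3.72%) and 863 fell (4.21%), and in GFP-negative cells only, 261 rose (1.27%) and 842 fell (4.11%). Of these, 512, 709, 216 and 469 had a response in the other fraction whose 95% interval lay within a 1.5-fold change either way. Another 441 genes (2.15%) passed in both fractions with 1 sign and different sizes, and 219 (1.07%) passed in neither. These shares of all genes tested are the background for the class counts of every gene list below. Without IL4 GFP-negative replicate 1 or 2 the opposite classes held 168 or 182 genes and 112 or 105 genes, and the class higher in GFP-negative cells only held 121 or 131. Gene length offsets gave 427 genes higher in GFP-positive cells only and 417 higher in GFP-negative cells only. Passing in 1 fraction alone was not enough for these classes. Of 6215 genes that passed in a single fraction, 3486 (56.1%) did not pass for the difference.

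**Figure D1:**
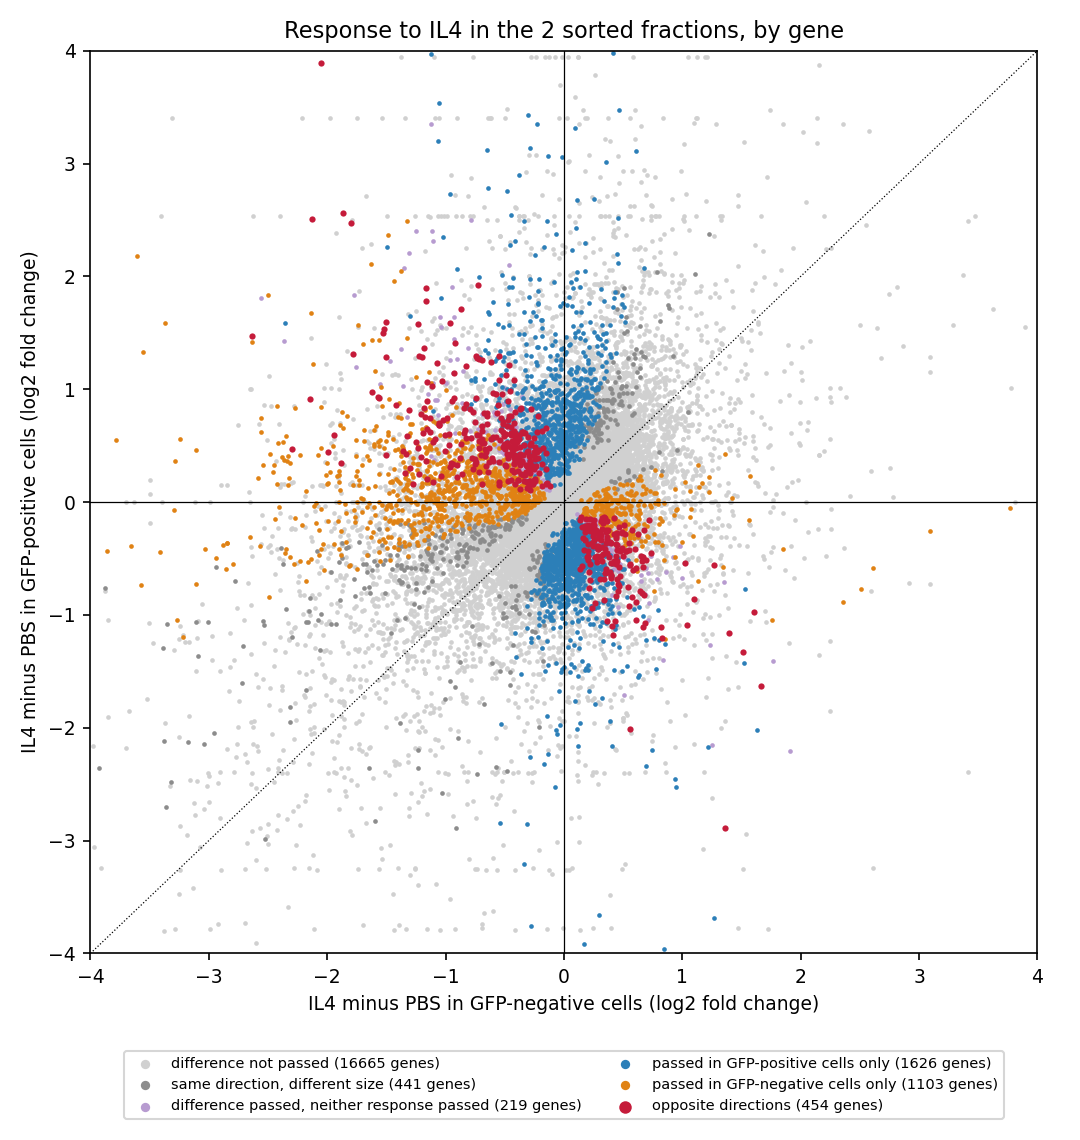
Each point is 1 gene, placed by its response to IL4 in GFP-negative cells (x axis, log2 fold change) and in GFP-positive cells (y axis, log2 fold change). Colours give the class, the dotted line marks equal responses, and 210 genes lie outside the axes. The 454 genes with opposite directions lie to the upper left and lower right of the origin.

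The genes of the IL4 receptor alpha chain and of STAT6 fell in GFP-negative cells and not in GFP-positive cells. The receptor alpha chain gene il4r.1 (ENSDARG00000102583, GRCz10 chromosome 3, 43301383 to 43359120) stood at 31.3 and 32.7 CPM after PBS and 9.62 and 9.63 CPM after IL4 in GFP-negative libraries. The GFP-positive fraction gave 13.9 and 15.6 CPM after PBS and 15.9 and 16.8 CPM after IL4. Its response in GFP-negative cells was a fall, -1.73 ± 0.14 (SE, edgeR adjusted p = 5.85e-09) on the log2 scale, and its response of 0.15 ± 0.14 in GFP-positive cells did not pass (95% interval -0.14 to 0.44). The difference was 1.88 ± 0.19 (SE, edgeR adjusted p = 8.01e-07). After PBS il4r.1 was thus higher in the GFP-negative fraction, and after IL4 it was lower there.

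The gene of the transducer, stat6 (ENSDARG00000015902, GRCz10 chromosome 23, 27152325 to 27196639), stood at 6.72 and 8.26 CPM after PBS and 11.8 and 9.77 CPM after IL4 in GFP-positive libraries. It stood at 18 and 16 CPM after PBS and 8.27 and 7.52 CPM after IL4 in GFP-negative libraries. It rose by 0.53 ± 0.19 (SE, edgeR adjusted p = 0.0386) in GFP-positive and changed by -1.11 ± 0.18 (SE, edgeR adjusted p = 7.39e-05) in GFP-negative cells, a difference of 1.64 ± 0.26 (SE, edgeR adjusted p = 1.21e-04). The groups did not overlap in either fraction. The rise in GFP-positive cells no longer passed under RLE factors (0.48), in DESeq2 (0.48), with gene length offsets (0.35) and without any single library except PBS GFP-positive replicate 2 (0.33 to 0.60), while the difference passed in each of these.

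Other members of the pathway were looked up because of their part in IL4 signalling and are named after their values were seen. The gene il13ra1, which encodes a partner chain of the IL4 receptor, stood at 54 and 49.5 CPM after PBS and 66.4 and 66.7 CPM after IL4 in GFP-positive libraries. GFP-negative cells had 43.1 and 49.2 CPM after PBS and 21.6 and 19.6 CPM after IL4. Its responses were 0.36 ± 0.09 (SE, edgeR adjusted p = 0.00631) and -1.16 ± 0.10 (SE, edgeR adjusted p = 2.22e-08), a difference of 1.52 ± 0.14 (SE, edgeR adjusted p = 1.33e-07). The rise no longer passed without IL4 GFP-positive replicate 1 (0.31) or 2 (0.30) or PBS GFP-positive replicate 2 (0.24). The kinase gene JAK1 rose in GFP-positive cells, at 63.1 and 74.7 CPM after PBS and 117 and 116 CPM after IL4, and stood at 121 and 122 CPM after PBS and 115 and 121 CPM after IL4 in GFP-negative cells, a difference of 0.80 ± 0.10 (SE, edgeR adjusted p = 1.08e-05). With gene length offsets its rise of 0.76 became 0.44. STAT3, a related transcription factor, rose in GFP-positive cells, at 43.6 and 42.5 CPM after PBS and 74 and 75.6 CPM after IL4, with a difference of 0.97 ± 0.12 (SE, edgeR adjusted p = 1.03e-05). The feedback inhibitor SOCS3 (ENSDARG00000026611) stood at 217 and 216 CPM after PBS and 281 and 289 CPM after IL4 in GFP-positive and 68 and 66 CPM after PBS and 40.02 and 38.1 CPM after IL4 in GFP-negative libraries, and it rose in the first (0.39) and fell in the second (-0.78). The cytokine gene il13 fell in both fractions, with responses of -2.41 ± 0.43 (SE, edgeR adjusted p = 2.3e-04) and -0.73 ± 0.20 (SE, edgeR adjusted p = 0.00999). Its difference of -1.68 no longer passed without IL4 GFP-negative replicate 1 (-1.53), IL4 GFP-positive replicate 2 (-1.19) or PBS GFP-positive replicate 1 (-1.58), and was -2.72 without IL4 GFP-positive replicate 1. Its GFP-negative fall no longer passed without IL4 GFP-negative replicate 2 (-0.60) or either PBS GFP-negative library (-0.73 and -0.74).

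Of 35 genes of the IL4 receptor and JAK-STAT6 list, the difference was above 0 in 10 and below 0 in 2, against 11.5% and 7.26% of all genes. The median difference was 0.26 against 0.07 over all genes tested. Of its members, 12 rose and 5 fell in GFP-positive cells, while 3 rose and 8 fell in GFP-negative cells. With gene length offsets the counts of the difference were 7 and 5, its median was 0.07 and the median response in GFP-positive cells turned from 0.15 to -0.09. Microglial genes, whose cells carry IL4 receptors in mammals, moved with the GFP-negative response. Their sum went from 9609 to 9883 CPM after PBS to 3337 to 3383 CPM after IL4 in GFP-negative libraries. In GFP-positive libraries it went from 3171 to 3200.1 to 2085 to 2120.1 CPM, with no gene of the list at 0 in either group. Their part in the il4r.1 and stat6 values was not tested.

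**Figure D2:**
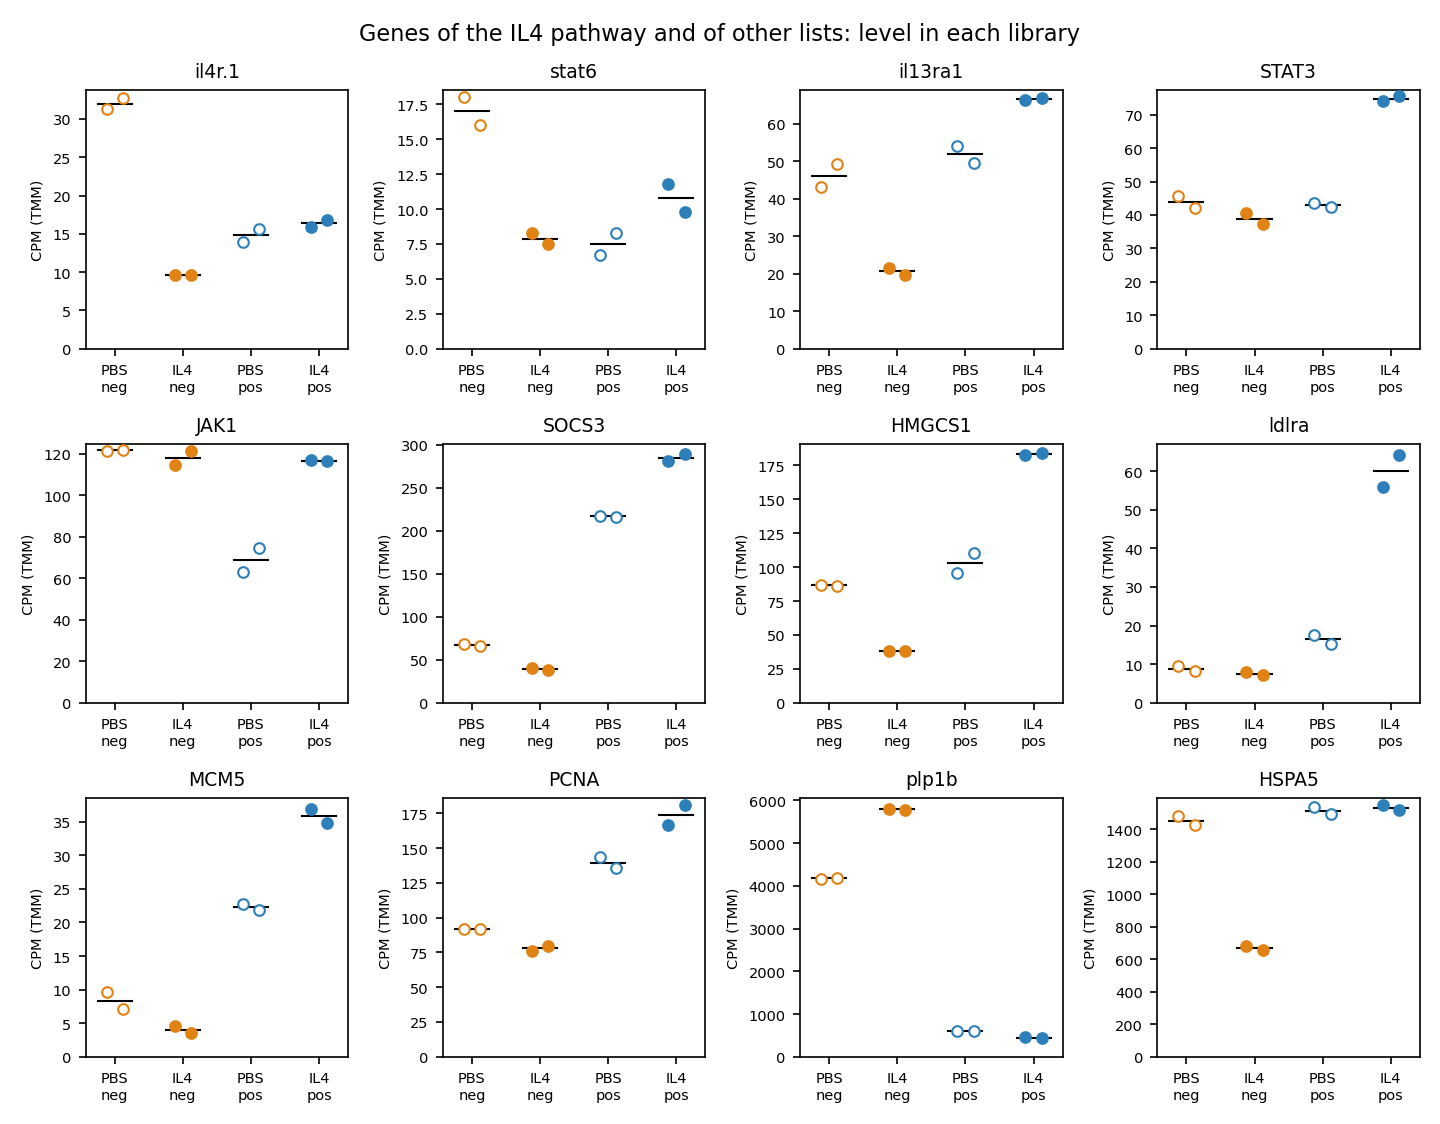
Levels of 12 genes in each library, in CPM after TMM scaling (y axis, from 0), by group (x axis, neg and pos for the GFP-negative and GFP-positive fractions). Open points are PBS, filled points IL4, and bars group means of 2 libraries. The IL4 points of il4r.1, il13ra1 and HMGCS1 lie below PBS in GFP-negative cells, and those of il13ra1 and HMGCS1 lie above PBS in GFP-positive cells.

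Among the genes that rose in GFP-positive and fell in GFP-negative cells, the 6 whose smaller response was largest were ABHD8, itgam.1, ROR1, MYO18A, frem1b and KLF3. MYO18A (ENSDARG00000075752, GRCz10 chromosome 10, 37006999 to 37131603), an unconventional myosin gene, stood at 10.1 and 9.88 CPM after PBS and 30.4 and 29.5 CPM after IL4 in GFP-positive libraries. The GFP-negative fraction gave 10.1 and 8.55 CPM after PBS and 3.6 and 4.31 CPM after IL4. Both fractions started from about the same level and ended far apart, with responses of 1.58 ± 0.16 and -1.24 ± 0.18 and a difference of 2.81 ± 0.24 (SE, edgeR adjusted p = 6.47e-08). The integrin gene itgam.1 (GRCz10 chromosome 12, 4077636 to 4108676) stood at 1.19 and 2.09 CPM after PBS and 3.6 and 5.58 CPM after IL4 in GFP-positive libraries. Levels in the GFP-negative fraction were 13.8 and 11.4 CPM after PBS and 3.6 and 5.14 CPM after IL4, and the difference was 3.03 ± 0.42 (SE, edgeR adjusted p = 2.81e-05). KLF3, a Krüppel-like transcription factor gene, stood at 1.65 and 2.3 CPM after PBS and 4.48 and 5.08 CPM after IL4 in GFP-positive libraries. Its GFP-negative libraries stood at 10.6 and 11.9 CPM after PBS and 5.09 and 4.66 CPM after IL4, so that the 2 fractions lay close together after IL4, and the difference was 2.48 ± 0.34 (SE, edgeR adjusted p = 3.11e-05).

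The other 3 of these genes were low. ABHD8 (ENSDARG00000076620) stood at 0.229 and 0.366 CPM after PBS and 1.75 and 1.77 CPM after IL4 in GFP-positive libraries and at 3.88 and 3.08 CPM after PBS and 1.02 and 0.879 CPM after IL4 in GFP-negative libraries, a difference of 4.43 ± 0.63 (SE, edgeR adjusted p = 3.85e-05). The basement membrane gene frem1b had a difference of 2.52 ± 0.53 (SE, edgeR adjusted p = 0.00204). Its rise of 1.29 no longer passed without IL4 GFP-positive replicate 2 (0.96) or PBS GFP-positive replicate 1 (0.77) and with gene length offsets (0.95), and its fall of -1.23 without IL4 GFP-negative replicate 1 (-0.93) or either PBS GFP-negative library (-1.27 and -1.19). ROR1, a receptor tyrosine kinase gene of Wnt signalling, had a difference of 2.79 ± 0.64 (SE, edgeR adjusted p = 0.00411). Its rise of 1.29 no longer passed under RLE factors (1.24), in DESeq2 (1.24), with the replicate block (1.28), with gene length offsets (1.03) and without any single library except IL4 GFP-positive replicate 1 (0.75 to 1.37), and its fall of -1.51 without IL4 GFP-negative replicate 2 (-1.20) or either PBS GFP-negative library (-1.51 for each).

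In the reverse orientation, the 6 genes whose smaller response was largest were cldna, krt5, PYGL, col7a1l, PRR18 and si:dkey-200l5.4. The epithelial keratin gene krt5 (GRCz10 chromosome 23, 10238226 to 10242488) stood at 20.3 and 14.2 CPM after PBS and 5.46 and 8.34 CPM after IL4 in GFP-positive libraries. Values in GFP-negative cells were 114 and 128 CPM after PBS and 353 and 338 CPM after IL4. It fell in the first (-1.33 ± 0.17) and rose in the second (1.51 ± 0.10), a difference of -2.84 ± 0.19 (SE, edgeR adjusted p = 2.17e-09). The tight junction gene cldna (GRCz10 chromosome 15, 2691994 to 2693936) moved likewise, at 3.66 and 2.77 CPM after PBS and 0.601 and 1.49 CPM after IL4 in GFP-positive libraries. GFP-negative cells had 14.6 and 17.6 CPM after PBS and 50.6 and 51.4 CPM after IL4, and the difference was -3.29 ± 0.35 (SE, edgeR adjusted p = 1.04e-06). Without IL4 GFP-positive replicate 2 its fall was -2.48 in place of -1.63. Both genes were higher in the GFP-negative fraction under PBS, and the gap was wider after IL4.

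PYGL and PRR18 began on the other side. PYGL, a glycogen phosphorylase gene, stood at 17.7 and 20.4 CPM after PBS and 9.61 and 8.23 CPM after IL4 in GFP-positive libraries. Across GFP-negative libraries the level was 3.81 and 3.24 CPM after PBS and 6.87 and 7.65 CPM after IL4, a difference of -2.13 ± 0.27 (SE, edgeR adjusted p = 1.10e-05). PRR18 stood at 26.6 and 29.5 CPM after PBS and 15.7 and 15.24 CPM after IL4 in GFP-positive libraries and at 1.88 and 2.43 CPM after PBS and 4.41 and 4.84 CPM after IL4 in GFP-negative libraries, a difference of -1.96 ± 0.26 (SE, edgeR adjusted p = 2.02e-05). Both were higher in GFP-positive cells under PBS, and the gap was narrower after IL4. The gene si:dkey-200l5.4 was the most abundant of the 6, at 433 and 412 CPM after PBS and 185 and 180.5 CPM after IL4 in GFP-positive and 1035 and 1188 CPM after PBS and 1997 and 1962 CPM after IL4 in GFP-negative libraries, a difference of -2.04 ± 0.07 (SE, edgeR adjusted p = 5.00e-13). The collagen gene col7a1l (ENSDARG00000069692) had a difference of -2.58 ± 0.45 (SE, edgeR adjusted p = 3.79e-04). Its fall of -0.97 in GFP-positive cells no longer passed under library totals (-0.90), with the replicate block (-0.98), without either GFP-negative library of PBS or IL4 (-0.97), without PBS GFP-positive replicate 2 (-0.86) and without IL4 GFP-positive replicate 2 (-0.67), and it was -1.51 without IL4 GFP-positive replicate 1.

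**Figure D3:**
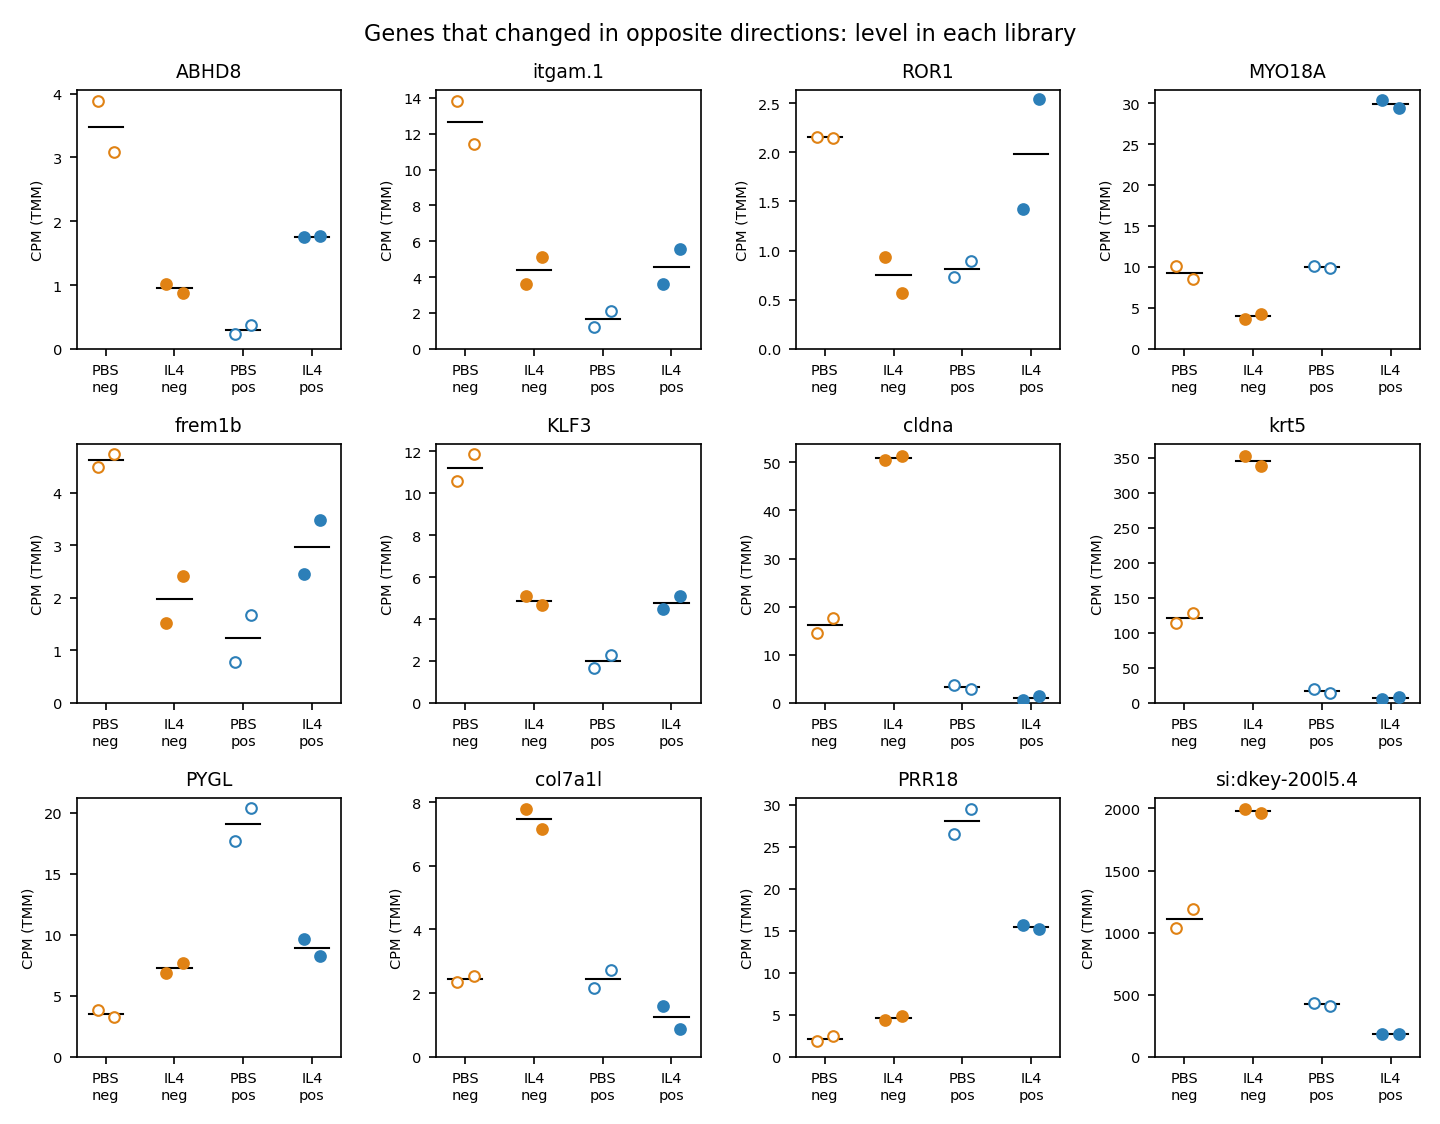
Levels of the 12 named genes with opposite directions in each library, in CPM after TMM scaling (y axis, from 0), by group (x axis, neg and pos for the GFP-negative and GFP-positive fractions). Open points are PBS, filled points IL4, and bars group means of 2 libraries. In each panel the step from PBS to IL4 goes one way in GFP-negative cells (left pair) and the other way in GFP-positive cells (right pair).

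Replication genes were among those that moved in opposite directions. Of 58 genes of the cell cycle and DNA replication list, the difference was above 0 in 13 and below 0 in 0, and 5 moved in opposite directions. In GFP-positive cells 15 rose and 0 fell, and in GFP-negative cells 0 rose and 10 fell. Over all genes tested 13.9% rose and 14.8% fell in GFP-positive cells, and 9.04% rose and 15.4% fell in GFP-negative cells. The difference was above 0 in 11.5% and below 0 in 7.26% of all genes tested. The 10 of 58 that fell in GFP-negative cells were thus near the share of all genes. The median responses of the list were 0.22 in GFP-positive and -0.21 in GFP-negative cells. MCM5, a subunit of the replicative helicase, stood at 22.7 and 21.9 CPM after PBS and 36.9 and 34.7 CPM after IL4 in GFP-positive libraries. Levels in the GFP-negative fraction were 9.61 and 7.05 CPM after PBS and 4.54 and 3.47 CPM after IL4, and the difference was 1.74 ± 0.24 (SE, edgeR adjusted p = 3.09e-05). PCNA, the replication clamp, stood at 144 and 135 CPM after PBS and 167 and 181 CPM after IL4 in GFP-positive libraries. In GFP-negative libraries it stood at 92.2 and 91.5 CPM after PBS and 75.9 and 79.9 CPM after IL4, a difference of 0.56 ± 0.09 (SE, edgeR adjusted p = 1.65e-04). The groups did not overlap for either gene in either fraction. PCNA's rise no longer passed without IL4 GFP-positive replicate 2 (0.20) and its fall without IL4 GFP-negative replicate 1 (-0.20). MCM6 (ENSDARG00000057683), another helicase subunit, had a difference of 1.32 ± 0.22 (SE, edgeR adjusted p = 1.92e-04), and its fall of -0.69 no longer passed without IL4 GFP-negative replicate 1 (-0.52) or PBS GFP-negative replicate 1 (-0.56). The proliferation marker mki67 rose by 0.52 ± 0.14 (SE, edgeR adjusted p = 0.00843) in GFP-positive cells, and its difference of 0.65 ± 0.20 (SE, edgeR adjusted p = 0.0298) no longer passed under RLE factors (0.58), in DESeq2 (0.58), with gene length offsets (0.41) and without any single library except PBS GFP-negative replicate 2 (0.51 to 0.73). The rise itself was lost without either IL4 GFP-positive library (0.45 and 0.48) or PBS GFP-positive replicate 2 (0.44) and with gene length offsets (0.15). The count of 13 was 6 in DESeq2 and 6 to 8 without IL4 GFP-negative replicate 1 or 2, IL4 GFP-positive replicate 1 or 2 or PBS GFP-negative replicate 1.

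Notch signalling keeps radial glia in a progenitor state, and proneural factors drive them towards neurons. Of 45 Notch pathway genes, the difference was above 0 in 11 and below 0 in 8, and 3 and 5 moved in opposite directions. The count of 11 was 6 without replicate 1 of IL4 or PBS GFP-negative and 7 with gene length offsets. The ligand gene dll4 stood at 8.59 and 9.31 CPM after PBS and 16.5 and 21 CPM after IL4 in GFP-positive libraries. Its GFP-negative libraries stood at 35.7 and 31.1 CPM after PBS and 19.5 and 13.2 CPM after IL4, and the difference was 2.1 ± 0.25 (SE, edgeR adjusted p = 4.02e-06). The receptor gene NOTCH1 (ENSDARG00000052094) had responses of 0.90 ± 0.19 and -0.95 ± 0.21 and a difference of 1.84 ± 0.28 (SE, edgeR adjusted p = 1.01e-04). Its rise no longer passed with gene length offsets (0.49) and its fall without IL4 GFP-negative replicate 1 (-0.70). The Notch target her4.1, source of the reporter's promoter, went the other way, at 1377 and 1316 CPM after PBS and 988 and 964 CPM after IL4 in GFP-positive libraries. Its response there was a fall of -0.46 ± 0.05 (SE, edgeR adjusted p = 1.98e-07), and it stood at 9.27 and 9.24 CPM after PBS and 10.5 and 8.92 CPM after IL4 in GFP-negative libraries, a difference of -0.53 ± 0.09 (SE, edgeR adjusted p = 4.08e-04).

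The proneural gene ascl1a (GRCz10 chromosome 4, 17428135 to 17430217) stood at 78.9 and 73.1 CPM after PBS and 121 and 122 CPM after IL4 in GFP-positive libraries. The GFP-negative fraction gave 21.7 and 20.9 CPM after PBS and 14.7 and 11.7 CPM after IL4. It rose in the first (0.67 ± 0.09) and fell in the second (-0.69 ± 0.11), a difference of 1.36 ± 0.14 (SE, edgeR adjusted p = 6.15e-07). Of 45 young neuron and neurogenic genes, 34 rose in GFP-positive and 23 in GFP-negative cells, with medians of 0.79 and 0.46, and the difference was above 0 in 14 and below 0 in 4. EBF2, a transcription factor gene of neuronal differentiation, rose in GFP-positive cells only, at 2.56 and 1.99 CPM after PBS and 10.5 and 7.68 CPM after IL4. GFP-negative cells had 2.27 and 2.51 CPM after PBS and 1.78 and 1.76 CPM after IL4, and the difference was 2.42 ± 0.42 (SE, edgeR adjusted p = 3.22e-04). The summed level of the list went from 4734 to 4754 to 6528 to 6531 CPM in GFP-positive and from 7440.1 to 7557 to 10699.6 to 10721 CPM in GFP-negative libraries. The count of 4 was 2 under library totals and without IL4 GFP-negative replicate 1 or 2.

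Radial glial markers split. Of 41, the difference was above 0 in 12 and below 0 in 15, and the median was -0.02 (0.03 under library totals, -0.11 with gene length offsets). Among the 41, 5 fell in GFP-positive and rose in GFP-negative cells and 2 did the reverse, against 0.829% and 1.38% of all genes tested. Another 6 rose in GFP-negative cells only, against 1.27% of all genes tested. The proteoglycan gene cspg5b moved in opposite directions, at 287 and 287 CPM after PBS and 154 and 161 CPM after IL4 in GFP-positive and 100.001 and 97.8 CPM after PBS and 125 and 125 CPM after IL4 in GFP-negative libraries, a difference of -1.21 ± 0.08 (SE, edgeR adjusted p = 8.67e-10). S100B, a glial calcium-binding protein gene, fell in GFP-positive cells only, at 626 and 568 CPM after PBS and 455 and 456 CPM after IL4, with a difference of -0.48 ± 0.10 (SE, edgeR adjusted p = 0.00263). The stem cell factor gene SOX2 rose in GFP-negative cells only, at 5.46 and 6.93 CPM after PBS and 9.07 and 8.92 CPM after IL4, a difference of -0.73 ± 0.17 (SE, edgeR adjusted p = 0.00437). Without PBS GFP-negative replicate 1 its rise of 0.54 no longer passed (0.37). GFAP, the glial filament gene, did not pass in either fraction (-0.22 ± 0.09 and 0.19 ± 0.22), and its difference of -0.41 ± 0.24 passed only without PBS GFP-negative replicate 1 (-0.83). The symbol FABP7, of a fatty acid-binding protein, is carried by ENSDARG00000034650 and ENSDARG00000007697, and both fell in both fractions. ENSDARG00000034650 had responses of -0.55 in GFP-positive and -1.20 in GFP-negative cells, and its difference of 0.65 passed. That call was lost in 2 of 14 alternatives, and the difference was 0.54 to 0.78 without single libraries. ENSDARG00000007697 had responses of -0.56 ± 0.04 and -0.44 ± 0.04, and its difference of -0.12 ± 0.05 (SE, edgeR adjusted p = 0.114) did not pass. It passed under RLE factors and in DESeq2 (-0.19 each) and without PBS GFP-negative replicate 2 (-0.17), IL4 GFP-positive replicate 2 (-0.21) or PBS GFP-positive replicate 2 (-0.24).

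The myelin genes plp1b and cldnk fell in GFP-positive and rose in GFP-negative cells. Of 18 oligodendrocyte and precursor genes, the difference was above 0 in 3 and below 0 in 7, and 3 moved in opposite directions. In GFP-negative cells 7 of the 18 rose and 4 fell. Among those that fell there was GPR17 (-1.03), with a difference of 1.30 whose call was lost in 9 of 14 alternatives. The proteolipid gene plp1b (GRCz10 chromosome 5, 22764321 to 22776298) stood at 605 and 614 CPM after PBS and 454 and 447 CPM after IL4 in GFP-positive libraries. Values in GFP-negative cells were 4163 and 4179.8 CPM after PBS and 5798 and 5772 CPM after IL4. The groups did not overlap in either fraction, and the difference was -0.91 ± 0.04 (SE, edgeR adjusted p = 2.90e-11). The myelin claudin gene cldnk, named after its values were seen, had responses of -0.69 ± 0.06 and 0.22 ± 0.05 and a difference of -0.91, and its rise no longer passed without IL4 GFP-negative replicate 1 (0.18). The summed level of the list went from 15386 to 15600.4 to 20104 to 20285 CPM in GFP-negative libraries. In GFP-positive libraries it went from 2126 to 2204 to 1836 to 1857 CPM, with no gene at 0.

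Respiratory chain genes held the largest share of passed differences among the 30 lists. Nuclear genes encode most subunits of the complexes that pass electrons and make ATP in mitochondria. Of 92 such genes, the difference was below 0 in 71 and above 0 in 0, against 7.26% and 11.5% of all genes. The share below 0 was higher among short, abundant genes. It was 45.3% of the 342 genes of 297 to 1516 bases with a mean of at least 100 CPM, which may include some of the 92. The list was not taken out of these genes, so their share is not a background separate from the list. Whether the list departs from other genes of its length and level was not tested. Of the 92 respiratory chain genes, 85 fell in GFP-positive and 20 in GFP-negative cells. In GFP-positive cells only, 59 fell, against 4.21% of all genes tested. The medians were -0.60 in GFP-positive, -0.13 in GFP-negative cells and -0.50 for the difference. Their summed level went from 18385 to 18903 to 12419.8 to 12785 CPM in GFP-positive libraries. In GFP-negative libraries it went from 9474 to 10159.9 to 9105 to 9106 CPM.

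The eligible members with the largest difference were NDUFA12 and atp5if1b. The gene atp5if1b, for an inhibitor of ATP synthase, stood at 419.6 and 397 CPM after PBS and 213 and 232 CPM after IL4 in GFP-positive libraries. Across GFP-negative libraries the level was 206 and 228 CPM after PBS and 233 and 233 CPM after IL4. After IL4 the GFP-positive level had come down to that of GFP-negative cells, and the difference was -0.98 ± 0.08 (SE, edgeR adjusted p = 3.86e-08). NDUFA12, a subunit of complex I, had a difference of -1.24 ± 0.38 (SE, edgeR adjusted p = 0.0269), which no longer passed without IL4 GFP-negative replicate 1 (-1.33) or 2 (-1.14) or PBS GFP-negative replicate 1 (-1.04). Of 13 genes that mitochondria themselves encode, the difference was above 0 in 6 and below 0 in 1, and their median response in GFP-positive cells was 0.00 (-0.05 under RLE factors, 0.12 with gene length offsets). In GFP-negative cells 11 of the 13 fell and 0 rose, with a median of -0.24, and in GFP-positive cells 2 rose and 4 fell. The count of 6 was 3 in DESeq2, 10 with gene length offsets, 3 without either IL4 GFP-positive library and 2 without PBS GFP-positive replicate 2. MT-CO1, a subunit of complex IV, stood at 5828 and 5533 CPM after PBS and 6608 and 6422 CPM after IL4 in GFP-positive and 5300.3 and 6521 CPM after PBS and 4552 and 4482 CPM after IL4 in GFP-negative libraries, a difference of 0.59 ± 0.08 (SE, edgeR adjusted p = 4.1e-05). Its rise in GFP-positive cells (0.20) no longer passed under RLE factors and in DESeq2 (0.14 each), without a filter (0.20) and without any single library except PBS GFP-negative replicates 1 and 2 (0.10 to 0.20), and its fall and its difference without a filter (-0.39 and 0.58). The fall was -0.23 without PBS GFP-negative replicate 2. The single member below 0, mt-atp8, had a difference of -0.48 ± 0.13 (SE, edgeR adjusted p = 0.0123), lost without PBS GFP-negative replicate 1 (-0.31).

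Gene length moved with the difference over all genes tested. The 92 genes had a median merged exon length of 860 bases, against 2315 bases over all genes tested. With genes cut by length into 4 equal bins, the median difference was -0.12 in the shortest and 0.22 in the longest. The median response in GFP-positive cells went from -0.22 to 0.25 over these bins, and in GFP-negative cells from -0.05 to 0.07. A fit with gene length offsets, chosen after this trend was seen, gave a difference below 0 in 68 of the 92 genes, against 71 without them.

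**Figure D4:**
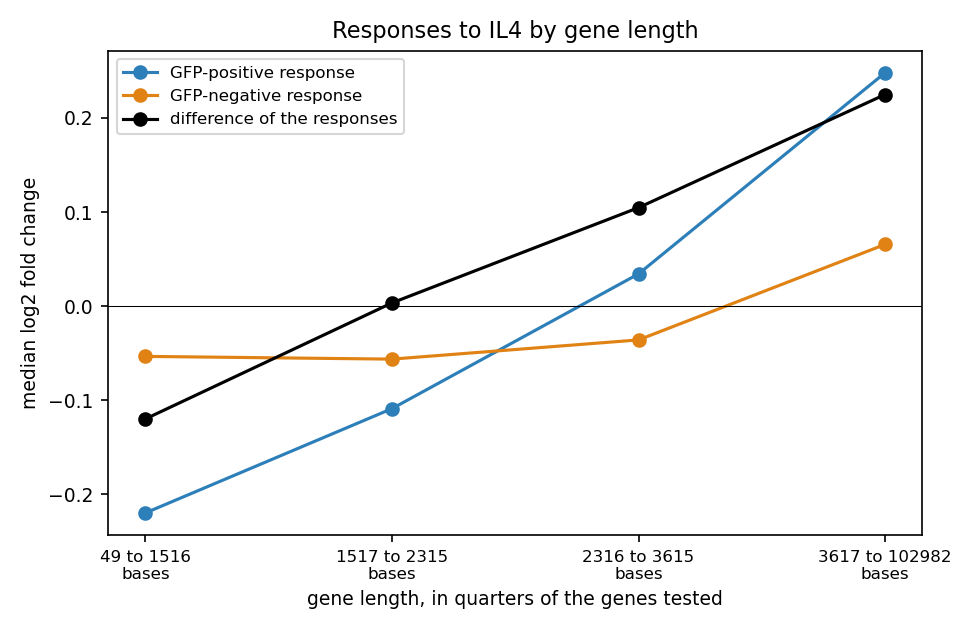
Median response to IL4 in GFP-positive cells (blue), in GFP-negative cells (orange) and median difference of the responses (black), as log2 fold change (y axis), in 4 bins of the genes tested by merged exon length (x axis, in bases). The GFP-positive line climbs from -0.22 to 0.25, and the GFP-negative line from -0.05 to 0.07.

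Of 32 genes of cholesterol synthesis and uptake, 16 rose and 2 fell in GFP-positive cells, and 2 rose and 5 fell in GFP-negative cells. Over all genes tested 13.9% rose and 14.8% fell in GFP-positive cells, and 9.04% rose and 15.4% fell in GFP-negative cells, so the 5 that fell there were near that share. Cells make cholesterol from acetyl-CoA through the mevalonate pathway and take it up through the LDL receptor. The difference was above 0 in 15 and below 0 in 0, and 10 rose in GFP-positive cells only, against 3.72% of all genes tested. HMGCS1, which makes the HMG-CoA from which mevalonate derives (GRCz10 chromosome 10, 6009365 to 6033188), stood at 95.4 and 110.1 CPM after PBS and 182 and 184 CPM after IL4 in GFP-positive libraries. In GFP-negative libraries it stood at 87.1 and 86.4 CPM after PBS and 38.3 and 38.2 CPM after IL4. It rose in the first (0.84 ± 0.07) and fell in the second (-1.18 ± 0.07), a difference of 2.02 ± 0.10 (SE, edgeR adjusted p = 3.17e-11). The LDL receptor gene ldlra (GRCz10 chromosome 3, 19149569 to 19173949) rose in GFP-positive cells only, at 17.5 and 15.3 CPM after PBS and 55.9 and 64.3 CPM after IL4. Levels in the GFP-negative fraction were 9.53 and 8.1 CPM after PBS and 7.88 and 7.25 CPM after IL4, and the difference was 2.09 ± 0.20 (SE, edgeR adjusted p = 3.29e-07). The count of 15 was 9 under RLE factors, 8 in DESeq2, 9 with gene length offsets and 6 to 8 without IL4 GFP-negative replicate 2 or any single GFP-positive library.

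Other genes that rose in GFP-positive cells only were GEM, MXRA5 and si:dkey-90l8.3. GEM, a small GTPase gene, stood at 1.23 and 1.25 CPM after PBS and 8.14 and 7.84 CPM after IL4 in GFP-positive libraries. Its GFP-negative libraries stood at 6.11 and 5.91 CPM after PBS and 6.57 and 6.42 CPM after IL4, a response of 0.11 ± 0.21, and the difference was 2.57 ± 0.34 (SE, edgeR adjusted p = 1.88e-05). After IL4 the fraction with the lower level had become the one with the higher. MXRA5 (ENSDARG00000074815), a matrix remodelling gene, had a difference of 2.43 ± 0.56 (SE, edgeR adjusted p = 0.00428), and si:dkey-90l8.3 one of 2.44 ± 0.83 (SE, edgeR adjusted p = 0.0456). The latter no longer passed under RLE factors (2.38) and without either IL4 GFP-negative library (2.77 and 2.19), IL4 GFP-positive replicate 1 (1.53), either PBS GFP-negative library (2.71 and 2.13) or PBS GFP-positive replicate 2 (1.79). SLC17A6 (ENSDARG00000001127), a vesicular glutamate transporter gene of excitatory neurons, also rose in GFP-positive cells only, at 1.83 and 1.93 CPM after PBS and 7.1 and 8.39 CPM after IL4, with a difference of 1.93 ± 0.27 (SE, edgeR adjusted p = 3.21e-05). GABBR2, a GABA-B receptor subunit gene, did likewise at 4.53 and 3.19 CPM after PBS and 10.2 and 9.39 CPM after IL4, with a difference of 1.17 ± 0.21 (SE, edgeR adjusted p = 4.30e-04).

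More interferon response genes rose than fell in either fraction. Of 37 interferon response genes, 17 rose and 1 fell in GFP-positive cells, and 7 rose and 3 fell in GFP-negative cells. The difference was above 0 in 10 and below 0 in 2. The antiviral GTPase gene mxa stood at 2.29 and 2.51 CPM after PBS and 5.84 and 6.3 CPM after IL4 in GFP-positive and 3.73 and 1.78 CPM after PBS and 1.91 and 1.89 CPM after IL4 in GFP-negative libraries, a difference of 1.88 ± 0.47 (SE, edgeR adjusted p = 0.00829), lost without PBS GFP-negative replicate 1 (1.25). Of 26 antigen presentation genes the difference was above 0 in 11 and below 0 in 0. In GFP-negative cells 12 of them fell and 1 rose, and in GFP-positive cells 7 rose and 6 fell. Their summed level went from 5867 to 6163 to 3062 to 3072 CPM in GFP-negative libraries. In GFP-positive libraries it went from 1813 to 1815 to 1843 to 1859 CPM. The co-stimulatory receptor gene cd40 rose in GFP-positive cells only, at 7.13 and 5.28 CPM after PBS and 14.3 and 15.4 CPM after IL4. GFP-negative cells had 13.2 and 9.28 CPM after PBS and 6.1 and 8.92 CPM after IL4, and the difference was 1.84 ± 0.31 (SE, edgeR adjusted p = 2.90e-04). PSMB8, an immunoproteasome subunit gene, rose in GFP-positive cells at 3.38 and 3.66 CPM after PBS and 6.23 and 6.85 CPM after IL4, with a difference of 1.38 ± 0.31 (SE, edgeR adjusted p = 0.00353), and its rise no longer passed without IL4 GFP-positive replicate 2 (0.76) or PBS GFP-positive replicate 1 (0.78). Of 31 NF-kB pathway genes the difference was above 0 in 10 and below 0 in 2. In GFP-negative cells 12 of them fell and 2 rose, and in GFP-positive cells 6 rose and 5 fell. Their summed level went from 1523 to 1550 to 1078 to 1129 CPM in GFP-positive libraries. In GFP-negative libraries it went from 1377 to 1405 to 1066 to 1075 CPM. The cofactor gene bcl3 was the 1 member that rose in GFP-positive cells only, at 0.96 and 0.941 CPM after PBS and 2.46 and 2.6 CPM after IL4, with a difference of 1.73 ± 0.40 (SE, edgeR adjusted p = 0.00469). The count of 10 interferon genes was 6 with gene length offsets and 6 without IL4 GFP-negative replicate 1 or 2, PBS GFP-negative replicate 1 or PBS GFP-positive replicate 1, and that of 10 NF-kB genes was 6 without IL4 GFP-negative replicate 2 or PBS GFP-positive replicate 1. The interferon sum went from 955 to 979 to 1183 to 1184 CPM in GFP-positive libraries and from 609.27 to 609.28 to 655 to 671 CPM in GFP-negative libraries. The microglial sums given above fell in both fractions, and their part in the interferon values was not tested.

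Among genes that fell in GFP-positive cells only and had a response under 0.25 in GFP-negative cells, the differences were largest in pde5aa, tmem54a, WIPF1 and DEF6. WIPF1, an actin regulator gene of blood cells, stood at 2.7 and 3.4 CPM after PBS and 0.765 and 0.718 CPM after IL4 in GFP-positive libraries. Levels in the GFP-negative fraction were 23.7 and 26.4 CPM after PBS and 22.5 and 25.5 CPM after IL4, a response of -0.06 ± 0.15, and the difference was -1.96 ± 0.33 (SE, edgeR adjusted p = 2.63e-04). The phosphodiesterase gene pde5aa had a difference of -2.1 ± 0.57 (SE, edgeR adjusted p = 0.0128), lost without IL4 GFP-negative replicate 1 (-2.01). DEF6 (ENSDARG00000044524), a gene of immune cell signalling, had a difference of -1.95 ± 0.56 (SE, edgeR adjusted p = 0.0188), and tmem54a one of -2.00 ± 0.67 (SE, edgeR adjusted p = 0.043), both from levels under 4 CPM. DEF6 no longer passed without either IL4 GFP-negative library (-1.97 and -1.92), IL4 GFP-positive replicate 1 (-1.63), PBS GFP-negative replicate 2 (-1.69) or PBS GFP-positive replicate 1 (-1.69). For tmem54a it no longer passed in DESeq2 (-2.08), with the replicate block (-2.03) and without 6 of the single libraries (-1.41 to -2.06). It held without PBS GFP-positive replicate 2, and without IL4 GFP-positive replicate 1 it was -3.37.

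More heat shock genes had a difference below 0 than above it. Of 44, the difference was below 0 in 15 and above 0 in 7. In opposite directions, 7 fell in GFP-positive while rising in GFP-negative cells and 3 did the reverse, against 0.829% and 1.38% of all genes tested. The count of 7 above 0 was 4 with gene length offsets and without any single GFP-positive library. The chaperone gene hspa1b stood at 87.1 and 95.2 CPM after PBS and 55.5 and 47.7 CPM after IL4 in GFP-positive libraries. The GFP-negative fraction gave 16.1 and 12.9 CPM after PBS and 21.4 and 25.1 CPM after IL4, a difference of -1.49 ± 0.16 (SE, edgeR adjusted p = 1.95e-06). The inducible chaperone gene hsp70.1 fell in both, at 1547 and 1541 CPM after PBS and 509 and 496 CPM after IL4 in GFP-positive and 739.95 and 761 CPM after PBS and 551 and 546 CPM after IL4 in GFP-negative libraries, a difference of -1.17 ± 0.05 (SE, edgeR adjusted p = 1.72e-11). Immediate early genes, which dissociation also induces, split into 18 above and 17 below 0 of 56, and 5 and 8 moved in opposite directions. Both ZFP36L1 genes, for RNA-binding proteins of mRNA decay, moved up in GFP-positive and down in GFP-negative cells. ENSDARG00000016154 had a difference of 1.48 ± 0.08 (SE, edgeR adjusted p = 1.35e-10) and ENSDARG00000021443 one of 1.60 ± 0.06 (SE, edgeR adjusted p = 1.09e-12). The rise of the latter was 0.26, and 0.15 with gene length offsets or 0.17 without PBS GFP-positive replicate 1. The summed level of the 56 genes went from 63454 to 64359.6 to 54084 to 54755 CPM in GFP-positive libraries and from 17887 to 18440.5 to 17206 to 17516 CPM in GFP-negative libraries, and its part in the other values was not tested.

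Most endothelial genes fell in GFP-negative cells. Of 33 endothelial genes, 25 fell in the GFP-negative and 3 in the GFP-positive fraction, with medians of -1.33 and -0.42, and 12 had a difference above 0 and 0 below. The second median was -0.63 with gene length offsets. The VEGF receptor gene flt1 stood at 24.8 and 24.8 CPM after PBS and 5.98 and 6.11 CPM after IL4 in GFP-negative libraries. Its GFP-positive libraries stood at 2.33 and 1.99 CPM after PBS and 1.86 and 1.49 CPM after IL4, and the difference was 1.67 ± 0.32 (SE, edgeR adjusted p = 0.00104). The endothelial claudin gene CLDN5 (ENSDARG00000043716) had responses of 0.58 ± 0.21 in GFP-positive and -1.32 ± 0.23 in GFP-negative cells and a difference of 1.91 ± 0.31 (SE, edgeR adjusted p = 1.90e-04). Its rise no longer passed under RLE factors and in DESeq2 (0.53 each) and without either IL4 library of GFP-negative (0.58) or GFP-positive cells (0.60 and 0.45) or either PBS GFP-positive library (0.46 and 0.59). Endothelial genes summed to 652 to 674 CPM after PBS and 316 to 329.8 CPM after IL4 in GFP-negative libraries, against 339.5 to 354 and 367 to 397 CPM in GFP-positive libraries.

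Of 69 extracellular matrix and remodelling genes, the difference was above 0 in 26 and below 0 in 1, and 28 fell in GFP-negative against 10 in GFP-positive cells. COL1A1, a fibrillar collagen gene, stood at 22.4 and 27.1 CPM after PBS and 5.26 and 4.66 CPM after IL4 in GFP-negative libraries. Values in GFP-positive cells were 1.23 and 2.77 CPM after PBS and 2.24 and 2.76 CPM after IL4, a difference of 2.66 ± 0.39 (SE, edgeR adjusted p = 6.65e-05). Its paralogue col1a1a had a difference of 2.38 ± 0.44 (SE, edgeR adjusted p = 6.76e-04), which was 1.54 without IL4 GFP-positive replicate 1. Of 25 mural and fibroblast genes the difference was above 0 in 6 and below 0 in 0. Of 20 genes of ependyma and motile cilia it was above 0 in 4 (2 without IL4 GFP-negative replicate 2, IL4 GFP-positive replicate 1 or PBS GFP-negative replicate 1) and below 0 in 0, among them the axonemal gene SPAG6, at 4.84 and 4.74 CPM after PBS and 1.31 and 2.07 CPM after IL4 in GFP-negative and 17.7 and 19.1 CPM after PBS and 19 and 16.2 CPM after IL4 in GFP-positive libraries (difference 1.44 ± 0.30 (SE, edgeR adjusted p = 0.00173)).

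Most microglial genes fell in each fraction. Of 48, 41 fell in the GFP-negative and 38 in the GFP-positive fraction, with medians of -1.40 and -1.05. The difference was above 0 in 19 and below 0 in 2. The same direction with different sizes held for 14, against 2.15% of all genes tested. Without IL4 GFP-positive replicate 2 the count of 19 was 12. The lipoprotein gene apoeb, named after its values were seen as one of the most abundant of the list, stood at 3813 and 3857 CPM after PBS and 792 and 754 CPM after IL4 in GFP-negative libraries. In GFP-positive libraries it stood at 466 and 454 CPM after PBS and 136 and 125 CPM after IL4, a difference of 0.49 ± 0.06 (SE, edgeR adjusted p = 5.57e-06). LPL, the lipoprotein lipase gene (ENSDARG00000087697), fell in GFP-negative cells only, at 34.1 and 33.4 CPM after PBS and 12.7 and 11.5 CPM after IL4, and stood at 29.4 and 33.6 CPM after PBS and 31.3 and 30.4 CPM after IL4 in GFP-positive libraries (difference 1.46 ± 0.17 (SE, edgeR adjusted p = 3.09e-06)). The growth factor receptor gene csf1ra had a difference of 1.48 ± 0.44 (SE, edgeR adjusted p = 0.0232), lost without IL4 GFP-negative replicate 2 (1.37), either IL4 GFP-positive library (1.36 and 1.44), PBS GFP-negative replicate 2 (1.38) or PBS GFP-positive replicate 1 (1.04). A single member of the list as matched moved in opposite directions, the phosphatidylserine receptor gene timd4, at 123 and 125 CPM after PBS and 174 and 168 CPM after IL4 in GFP-negative and 18 and 20.03 CPM after PBS and 12.1 and 13.4 CPM after IL4 in GFP-positive libraries (difference -1.04 ± 0.12 (SE, edgeR adjusted p = 3.08e-06)). The list names itgam, but its matching left out itgam.1, which rose in GFP-positive and fell in GFP-negative cells (difference 3.03).

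Of 38 unfolded protein response genes, 20 fell and 3 rose in the GFP-negative fraction and 11 fell in the GFP-positive fraction, and the difference was above 0 in 13 and below 0 in 2. HSPA5, the main chaperone of the endoplasmic reticulum (GRCz10 chromosome 5, 2440676 to 2448586), stood at 1484 and 1424 CPM after PBS and 680.2 and 657 CPM after IL4 in GFP-negative libraries. The GFP-positive fraction gave 1537 and 1494 CPM after PBS and 1551 and 1518 CPM after IL4. The fall in GFP-negative cells was -1.12 ± 0.04 (SE, edgeR adjusted p = 1.44e-14), the 95% interval of the other response was -0.06 to 0.10, and the difference was 1.14 ± 0.05 (SE, edgeR adjusted p = 1.86e-11). TRIB3, a stress-induced pseudokinase gene, had a difference of 0.82 ± 0.08 (SE, edgeR adjusted p = 4.82e-07). The chemokine scavenger receptor gene ACKR3 (ENSDARG00000062478) fell in GFP-negative cells only, at 36.6 and 35.9 CPM after PBS and 7.38 and 6.73 CPM after IL4, with 1.14 and 1.46 CPM after PBS and 1.53 and 1.82 CPM after IL4 in GFP-positive libraries (difference 2.73 ± 0.33 (SE, edgeR adjusted p = 5.93e-06)). Its ligand gene cxcl12b fell in both, with responses of -0.50 ± 0.15 in GFP-positive and -1.87 ± 0.13 in GFP-negative cells (difference 1.38 ± 0.20 (SE, edgeR adjusted p = 4.19e-05)). The GFP-positive fall no longer passed without IL4 GFP-positive replicate 2 (-0.50) or PBS GFP-positive replicate 1 (-0.32), and it was -0.76 without PBS GFP-positive replicate 2.

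Among genes that fell in GFP-negative cells only and had a response under 0.25 in GFP-positive cells, the differences were largest in nim1kb, SLC13A3, PDE6B and SLC43A3. SLC43A3 (ENSDARG00000057949), a solute carrier gene, stood at 138 and 126 CPM after PBS and 27.6 and 30.5 CPM after IL4 in GFP-negative libraries. Its GFP-positive libraries stood at 15.4 and 14.8 CPM after PBS and 17.4 and 15.07 CPM after IL4, a response of 0.10 ± 0.11, and the difference was 2.28 ± 0.15 (SE, edgeR adjusted p = 1.33e-09). PDE6B (ENSDARG00000000380), a phosphodiesterase gene of photoreceptors, stood at 18.9 and 14.7 CPM after PBS and 3.09 and 3.08 CPM after IL4 in GFP-negative and 1.46 and 2.04 CPM after PBS and 1.8 and 1.33 CPM after IL4 in GFP-positive libraries (difference 2.29 ± 0.40 (SE, edgeR adjusted p = 4.00e-04)). The kinase gene nim1kb and the dicarboxylate transporter gene SLC13A3 were under 4 CPM in all libraries, with differences of 2.80 ± 0.66 (SE, edgeR adjusted p = 0.0053) and 2.37 ± 0.67 (SE, edgeR adjusted p = 0.0174). The first no longer passed without IL4 GFP-negative replicate 2 (2.22), and the second without that library (1.95), IL4 GFP-positive replicate 2 (1.66) or PBS GFP-negative replicate 1 (2.24).

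Genes that rose in GFP-negative cells only included hapln1a, krt91, tmem200b and OLFM2. Of the 69 genes of the extracellular matrix and remodelling list, 0 were in this class, and 13 fell in GFP-negative cells only. Over all genes tested these shares were 1.27% and 4.11%. The hyaluronan link protein gene hapln1a stood at 3.38 and 2.8 CPM after PBS and 9.03 and 7.56 CPM after IL4 in GFP-negative libraries. Its GFP-positive libraries stood at 68.8 and 70.01 CPM after PBS and 75.6 and 66.5 CPM after IL4, and the difference was -1.39 ± 0.19 (SE, edgeR adjusted p = 2.65e-05). The keratin gene krt91 stood at 30.5 and 36.2 CPM after PBS and 103 and 95.9 CPM after IL4 in GFP-negative libraries. Values in GFP-positive cells were 9.33 and 9.15 CPM after PBS and 11 and 10.7 CPM after IL4, a difference of -1.35 ± 0.17 (SE, edgeR adjusted p = 7.51e-06). This keratin rose where krt5 rose, whereas its GFP-positive response of 0.23 ± 0.13 did not pass and that of krt5 was a fall. The gene tmem200b had a difference of -1.20 ± 0.23 (SE, edgeR adjusted p = 9.87e-04). OLFM2 (ENSDARG00000102825) had one of -1.73 ± 0.53 (SE, edgeR adjusted p = 0.0286), which no longer passed without a filter (-1.73), in DESeq2 (-1.80) and without IL4 GFP-negative replicate 1 (-1.38), PBS GFP-negative replicate 1 (-1.27), IL4 GFP-positive replicate 1 (-1.62) or either PBS GFP-positive library (-1.81 and -1.82).

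Where both fractions moved the same way, 120 genes rose more in GFP-positive and 19 more in GFP-negative cells, and 84 fell more in GFP-positive and 218 more in GFP-negative cells. The isotocin precursor gene oxt, a neuropeptide gene of the hypothalamus (GRCz10 chromosome 5, 71303113 to 71308749), stood at 129 and 122 CPM after PBS and 1.31 and 1.6 CPM after IL4 in GFP-positive libraries. Values in GFP-negative cells were 45 and 51.7 CPM after PBS and 10.05 and 11.2 CPM after IL4. The responses were -6.43 ± 0.15 and -2.19 ± 0.11, a difference of -4.24 ± 0.20 (SE, edgeR adjusted p = 2.02e-11). Of 34 hypothalamic neuropeptide genes, 16 fell in GFP-positive and 10 in GFP-negative cells, and the difference was above 0 in 2 and below 0 in 9. Only 3 of the 34 were in the class of same direction and different size, and 4 fell in GFP-positive cells only. Over all genes tested these shares were 2.15% and 4.21%. Another 2 rose in GFP-positive and fell in GFP-negative cells, and 2 did the reverse, against 1.38% and 0.829% of all genes tested. The count of 9 was 5 without either IL4 GFP-negative library or PBS GFP-negative replicate 1. NPY, an appetite-regulating neuropeptide gene, stood at 22.8 and 21.5 CPM after PBS and 5.63 and 5.52 CPM after IL4 in GFP-positive and 122 and 119 CPM after PBS and 106 and 102 CPM after IL4 in GFP-negative libraries (difference -1.78 ± 0.13 (SE, edgeR adjusted p = 8.26e-09)). Its fall in GFP-negative cells, -0.21, no longer passed under RLE factors and in DESeq2 (-0.20 each), under library totals (-0.19), with gene length offsets (-0.17) and without any single GFP-negative library (-0.19 to -0.24).

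The genes cldn3c and ELF3 rose in both fractions and had few counts in PBS GFP-positive libraries. The tight junction gene cldn3c had 1 count in both PBS GFP-positive libraries together and 129 in the IL4 ones, which is 145 times as many per library size, with a 95% interval for counting error of 25.6 to 5780. Across GFP-negative libraries the level was 1.15 and 1.78 CPM after PBS and 4.11 and 4.44 CPM after IL4. The transcription factor gene ELF3 had 2 and 86 counts, which is 48.4 times as many per library size (interval 13.0 to 406), and 4.61 and 3.77 CPM after PBS and 7.67 and 9.63 CPM after IL4 in GFP-negative libraries. The fitted difference passed for both (edgeR adjusted p = 2.56e-04 and 1.74e-04). The rise of cldn3c in GFP-negative cells (1.54) no longer passed without PBS GFP-negative replicate 1 (1.26), and that of ELF3 (1.04) without replicate 2 of PBS (0.90) or IL4 GFP-negative (0.87). The gene zgc:162144 fell in both, at 34.6 and 31.7 CPM after PBS and 2.16 and 2.33 CPM after IL4 in GFP-negative and 3.34 and 3.45 CPM after PBS and 2.29 and 1.71 CPM after IL4 in GFP-positive libraries (difference 3.12 ± 0.32 (SE, edgeR adjusted p = 7.53e-07)), and its GFP-positive fall no longer passed without IL4 GFP-positive replicate 2 (-0.62).

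Most ribosomal protein genes fell in GFP-negative cells. Of 79, 76 fell in the GFP-negative fraction, and 42 fell and 4 rose in the GFP-positive fraction, with medians of -0.36 and -0.16. The difference was above 0 in 39 and below 0 in 0. RPLP0, of the ribosomal stalk, stood at 1756 and 1794 CPM after PBS and 1988 and 2055 CPM after IL4 in GFP-positive and 1127 and 1133 CPM after PBS and 929 and 914 CPM after IL4 in GFP-negative libraries (difference 0.48 ± 0.05 (SE, edgeR adjusted p = 7.25e-07)). RPL4, of the large subunit, had responses of 0.24 ± 0.04 and -0.33 ± 0.04. The rise of RPLP0 no longer passed without IL4 GFP-positive replicate 2 (0.11) or PBS GFP-positive replicate 1 (0.12). The GFP-positive median was -0.08 under library totals and -0.07 with gene length offsets. The count of 39 was 14 to 25 without any single GFP-positive library, lowest without IL4 GFP-positive replicate 2.

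Both TPH2 and DDC, genes of serotonin synthesis, had a difference above 0. TPH2, which makes serotonin in brain neurons, stood at 90.2 and 89 CPM after PBS and 11.4 and 15.8 CPM after IL4 in GFP-negative libraries. In GFP-positive libraries it stood at 7.73 and 4.86 CPM after PBS and 2.18 and 1.99 CPM after IL4. It fell in both, with responses of -2.72 ± 0.15 and -1.60 ± 0.25, and the difference of 1.12 ± 0.31 (SE, edgeR adjusted p = 0.0156) no longer passed without IL4 GFP-negative replicate 1 (0.90), either IL4 GFP-positive library (0.98 and 1.11) or PBS GFP-positive replicate 2 (0.75). DDC, which carries out the next step, fell in GFP-negative cells only, at 39.9 and 48.4 CPM after PBS and 12.7 and 13 CPM after IL4, with 1.92 and 2.41 CPM after PBS and 3.11 and 1.66 CPM after IL4 in GFP-positive libraries (difference 1.93 ± 0.33 (SE, edgeR adjusted p = 3.20e-04)). LMX1B (ENSDARG00000068365), a transcription factor gene of serotonergic neurons, had a difference of 1.57 ± 0.39 (SE, edgeR adjusted p = 0.00668). Its difference and its fall of -1.24 no longer passed without IL4 GFP-negative replicate 2 (1.27 and -0.93). Of 24 serotonin genes, the difference was above 0 in 5 and below 0 in 1, and the count of 5 was 3 without either IL4 GFP-negative library or IL4 GFP-positive replicate 1.

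That 1 gene was the receptor gene HTR1A, at 3.06 and 2.61 CPM after PBS and 1.47 and 1.99 CPM after IL4 in GFP-positive and 20.3 and 19.4 CPM after PBS and 27.1 and 24.1 CPM after IL4 in GFP-negative libraries. It fell in GFP-positive cells with a response of -0.72 ± 0.25 (SE, edgeR adjusted p = 0.0374), its GFP-negative response of 0.37 ± 0.15 did not pass, and the difference was -1.09 ± 0.29 (SE, edgeR adjusted p = 0.0126). The difference no longer passed without IL4 GFP-negative replicate 1 (-0.99) or replicate 1 of IL4 GFP-positive (-0.96). The fall failed to pass under library totals (-0.64), with gene length offsets (-0.65) and without either IL4 GFP-negative library or PBS GFP-negative replicate 1 (-0.72), IL4 GFP-positive replicate 1 (-0.57) or PBS GFP-positive replicate 1 (-0.65). The receptor genes htr1aa (-0.16 ± 0.36), htr1b (-1.23 ± 0.97) and HTR1D (-0.18 ± 0.43) did not pass for the difference. TPH1 did not pass on ENSDARG00000029432 (0.71 ± 0.40) or on ENSDARG00000036082 (1.48 ± 1.04). Without PBS GFP-positive replicate 2 the first of these passed at 1.27. SLC6A4, for the serotonin transporter, had 0 counts in PBS and 3 in IL4 GFP-positive libraries, and no fold is given.

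Of 14 neurotrophin and receptor genes, the difference was above 0 in 2 and below 0 in 0, near the 11.5% and 7.26% of all genes tested, above 0 in 0 in DESeq2 and in 0 to 1 without single libraries, and below 0 in 3 with gene length offsets. BDNF, a neurotrophin gene, stood at 12.7 and 13.4 CPM after PBS and 25 and 23.7 CPM after IL4 in GFP-negative libraries. The GFP-positive fraction gave 3.43 and 2.35 CPM after PBS and 4.1 and 3.75 CPM after IL4. It rose in GFP-negative cells by 0.90 ± 0.17 (SE, edgeR adjusted p = 3.30e-04), its GFP-positive response of 0.43 ± 0.23 did not pass, and the difference of -0.47 ± 0.28 (SE, edgeR adjusted p = 0.273) did not pass, so the responses are not shown to differ. NTRK2, the gene of its receptor, fell in both fractions, with responses of -0.30 ± 0.06 and -0.62 ± 0.08, and with a difference of 0.32 ± 0.10 (SE, edgeR adjusted p = 0.0348) that no longer passed under RLE factors (0.25), in DESeq2 (0.25), with gene length offsets (0.09) and without any single library except IL4 GFP-negative replicate 2 and PBS GFP-negative replicate 1 (0.22 to 0.29). The paralogue ntrk2b did not pass (0.10 ± 0.28). The symbol NGFR belongs to 2 genes, and the table of names does not tell which of them is ngfra. ENSDARG00000088708 did not pass (-0.24 ± 0.16), at 25.6 and 24.9 CPM after PBS and 24.1 and 24.1 CPM after IL4 in GFP-positive and 49 and 39.7 CPM after PBS and 46.6 and 52.8 CPM after IL4 in GFP-negative libraries, and it passed at -0.47 with gene length offsets. ENSDARG00000089223 stood at 0.366 and 0.157 CPM after PBS and 1.26 and 0 CPM after IL4 in GFP-positive and 7.92 and 5.79 CPM after PBS and 1.87 and 1.27 CPM after IL4 in GFP-negative libraries. Its difference of 3.34 ± 1.01 (SE, edgeR adjusted p = 0.0254) rests on IL4 GFP-positive replicate 1, without which it was -3.55.

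Among the remaining lists, neuronal genes had a difference below 0 more often than the 7.26% of all genes tested. In GFP-negative cells 26 of 59 neuronal genes rose, against 9.04% of all genes. The other remaining lists were close to the background or mixed. The difference was above 0 in 8 and below 0 in 14 of 59 neuronal genes, and CACNA1A, a calcium channel gene, stood at 8.05 and 6.59 CPM after PBS and 4.64 and 5.36 CPM after IL4 in GFP-positive and 28.2 and 37.2 CPM after PBS and 84.3 and 73.4 CPM after IL4 in GFP-negative libraries (difference -1.83 ± 0.23 (SE, edgeR adjusted p = 8.96e-06)). Its fall of -0.55 no longer passed under library totals (-0.48) and without replicate 1 of IL4 (-0.51) or PBS GFP-positive (-0.46), and was -0.94 with gene length offsets. Without IL4 GFP-positive replicate 2 the count of 8 neuronal genes was 5. Of 61 glutamate and GABA receptor genes it was above 0 in 8 and below 0 in 3, and the first was 4 and the second 6 with gene length offsets. The first was 4 without IL4 GFP-negative replicate 2 and 5 in DESeq2 and without IL4 GFP-negative replicate 1, either IL4 GFP-positive library, PBS GFP-negative replicate 2 or PBS GFP-positive replicate 1. Of 41 inflammatory cytokine and chemokine genes it was above 0 in 6 and below 0 in 4 (2 without replicate 1 of IL4 or PBS GFP-negative). Lymphocyte genes gave 2 above and 1 below 0 of 23, neutrophil genes 1 and 1 of 10, and erythrocyte genes 0 and 1 of 13. On the lymphocyte list, il10ra, an interleukin-10 receptor gene, fell in both fractions, with a difference of 0.94 ± 0.23 (SE, edgeR adjusted p = 0.00572) that no longer passed without IL4 GFP-positive replicate 2 (0.62). Its fall was not that of the list, whose median responses were 0.04 in GFP-positive and 0.27 in GFP-negative cells. The erythrocyte list's member was cahz, a carbonic anhydrase gene, which rose in GFP-negative cells only (difference -0.51 ± 0.07 (SE, edgeR adjusted p = 4.78e-05)).

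**Figure D5:**
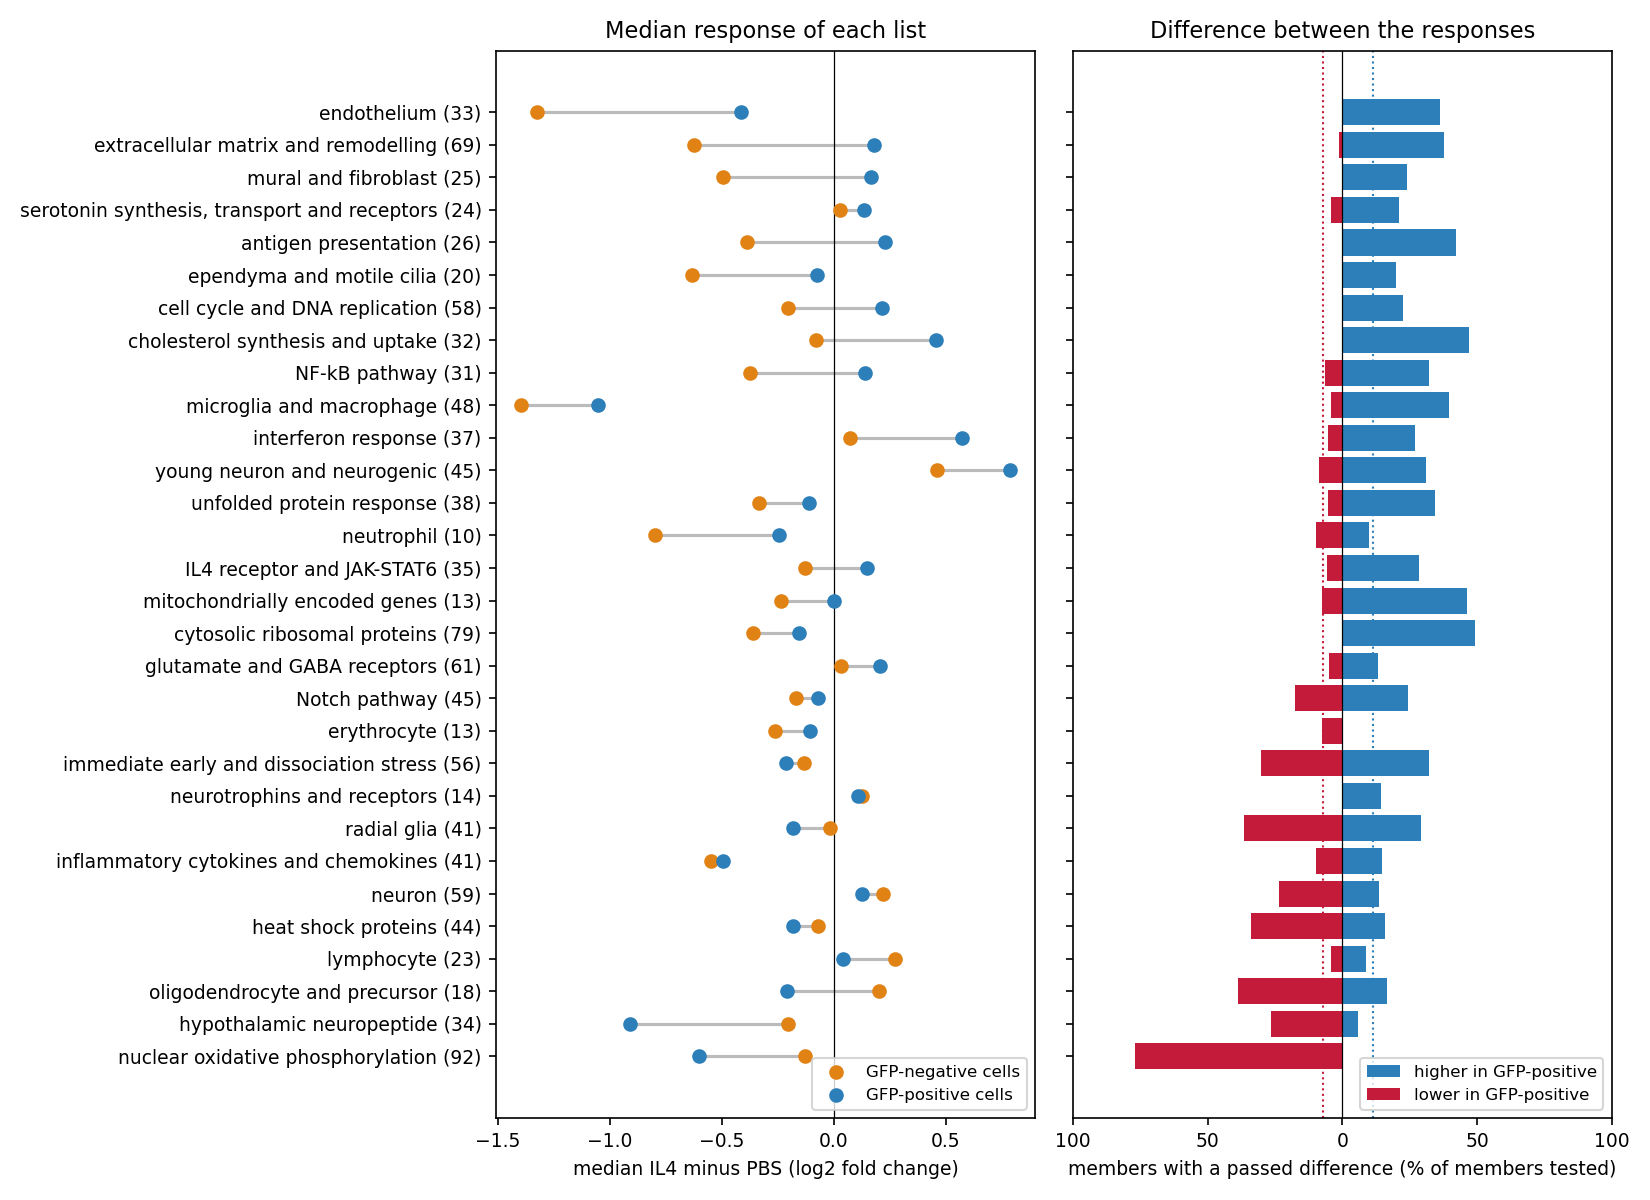
Left, median response to IL4 (x axis, log2 fold change) of each list in GFP-negative (orange) and GFP-positive cells (blue), with the number of genes tested in brackets. Right, the share of each list's genes tested whose difference passed above 0 (blue, to the right) or below 0 (red, to the left), in percent, with dotted lines at the shares over all genes tested (11.5% and 7.26%). Nuclear oxidative phosphorylation stands at the bottom with 71 of 92 genes below 0, and endothelium at the top with 12 of 33 above 0.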

How the data were processed

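RNA was measured in 8 libraries (2 in each of 4 groups). Per the labels' protocols, cDNA was made from poly(A) RNA with template switching, amplified, sheared and sequenced as 75-base single reads. The deposited table holds whole-number counts per gene, made by the authors with featureCounts on GRCz10 per the submitters' processing notes. Aligner, strand setting and treatment of multiply aligned reads are not given in the sources used here, so values of close paralogues and of overlapping genes are uncertain. The gene length, in bases, is the deposited table's own.

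Counts were fitted with edgeR 4.0.16 in R 4.3.3 (limma 3.58.1): TMM factors, filterByExpr (minimum count 10), which kept 20508 and removed 10880 of 31388 genes, and robust quasi-likelihood estimation for 4 groups with 4 residual degrees of freedom. The common dispersion was 0.00816. The main contrast was (IL4 minus PBS in GFP-positive) minus (IL4 minus PBS in GFP-negative). P-values are two-sided, Benjamini-Hochberg adjusted over all genes tested. SE is the size of a log2 fold change divided by the square root of F. CPM are after TMM. Ratios at 1 to 3 counts carry 95% counting intervals, which cover counting error only. Scripts were tested on simulated data. Alternatives were RLE factors, library totals, no filter, DESeq2 1.42.0, a replicate block, leaving out each library, and, added after the data were seen, gene length offsets. Labels state no pairing of replicates.

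The members and the 30 gene lists were chosen with earlier results of these data known, and lists are described by counts and medians without a set test. Of 31388 genes, 25925 had a symbol in the name table, and a shared symbol is told apart by identifier. Named were, per orientation of opposite direction, the 6 genes with the largest smaller response, in each class of 1 fraction only the 4 with the largest difference and a response under 0.25 in the other fraction, 4 genes of same direction, the 2 passed members of each list with the largest difference, and the genes of the study question, among genes with a symbol, at least 1 CPM on average in each fraction and libraries that do not overlap. Genes said to be named after their values were seen fall outside this rule, as do JAK1, STAT3, SOCS3 and timd4. Some genes that the rule gave are not described above. Among them are helz2b (difference 1.79), IKBKE (1.41), GRIK1 (ENSDARG00000069139, 1.20) and CFAP43 (1.83). Their calls for the difference were lost in 10, 8, 6 and 4 of 14 alternatives, in this order. All 8 columns of counts were used.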

Additional observations from a re-analysis of the deposited data

Results flagged for a closer look

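The effect of IL4 differed between the fractions by a test of the difference itself at 3843 genes. Among them, the 2 fractions moved in opposite directions at 284 genes (up in GFP-positive, down in GFP-negative cells) and at 170 genes (the reverse). Those that the report names are singled out here, because each passed in both fractions with opposite signs and for the difference of the responses (log2, GFP-positive minus GFP-negative, edgeR).

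Among the named genes only, of those that rose in GFP-positive and fell in GFP-negative cells, the difference was largest in the following. It was ABHD8 4.43, itgam.1 3.03, MYO18A 2.81, ROR1 2.79, frem1b 2.52, KLF3 2.48, dll4 2.1, HMGCS1 2.02, CLDN5 1.91, NOTCH1 1.84 and MCM5 1.74. The other named genes of this orientation had smaller differences, which were stat6 1.64, ZFP36L1 (ENSDARG00000021443) 1.60, il13ra1 1.52, ZFP36L1 (ENSDARG00000016154) 1.48, ascl1a 1.36, MCM6 1.32, SOCS3 1.17, MT-CO1 0.59, RPL4 0.57, PCNA 0.56 and RPLP0 0.48.

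Of the named genes that fell in GFP-positive and rose in GFP-negative cells, the differences were cldna -3.29, krt5 -2.84, col7a1l -2.58, PYGL -2.13, si:dkey-200l5.4 -2.04, PRR18 -1.96, CACNA1A -1.83, hspa1b -1.49, cspg5b -1.21, timd4 -1.04, plp1b -0.91 and cldnk -0.91. No group here holds 4 libraries, so no library was tested for standing apart from its group.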

How the results depend on the processing

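Groups of 2 libraries and amplified cDNA limit precision, and a fit without 1 library assumes that the lone library of its group varies like the others. Without single libraries, genes passed for the difference numbered 2515 to 3898 (1568 to 1934 above and 947 to 1964 below 0), and the count was 2515 without IL4 GFP-negative replicate 1. Genes passed in GFP-negative cells numbered 3184 to 5626 (984 to 2346 higher), with the lowest total without IL4 GFP-negative replicate 2. Opposite directions held 168 to 234 genes up in GFP-positive cells and 105 to 241 down. GFP-positive cells only held 455 to 657 higher, GFP-negative cells only 121 to 379 higher, and same direction 260 to 386. Counts moved by over 1.5 times without either IL4 GFP-negative library (below 0, passed in GFP-negative cells, both opposite orientations, higher in GFP-negative cells only, same direction), without either IL4 GFP-positive library (opposite and up, higher in GFP-positive cells only), without PBS GFP-positive replicate 1 (higher in GFP-positive cells only) and without PBS GFP-negative replicate 1 (higher in GFP-negative cells and in these only). Without IL4 GFP-negative replicate 1 the total for the difference and its count above 0 also moved by over 1.5 times. Gene length offsets gave 1792 genes higher in GFP-positive cells, 291 opposite genes down in GFP-positive cells, 427 higher in GFP-positive cells only and 417 higher in GFP-negative cells only. DESeq2 gave 187 opposite genes up in GFP-positive cells. The cause of these shifts was not tested.

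The split of the difference was 1941 above and 1850 below 0 under RLE factors, 2623 and 1244 under library totals, 1724 and 1680 in DESeq2, 1723 and 1934 with gene length offsets and 2513 and 1568 without a filter. RLE factors moved the median difference of all genes by -0.07, library totals by 0.05 and gene length offsets by -0.10. Every one of the 284 and 170 opposite genes kept the sign of its difference in the 14 alternatives. A kept sign says little, since these genes were chosen for a passed difference and the alternatives refit the same libraries. Fewer kept their class, with 187 of the 284 and 164 of the 170 in DESeq2. With gene length offsets 179 and 158 kept it, and under library totals 263 and 133. A replicate block gave 3598 genes passed for the difference, and replicate deviations of any 2 groups correlated at -0.011 to 0.0036 across genes, so the numbers were not taken as pairs. The calls lost with the block among genes of the report were those of the rise of ROR1 (1.28), the fall of col7a1l in GFP-positive cells (-0.98) and the difference of tmem54a (-2.03). Differences that changed sign were those of ntrk2b (-0.0082 with gene length offsets, -0.27 to 0.35 without single libraries), htr1aa (-0.42 to 0.038), HTR1D (-0.71 to 0.17), htr1b (-2.14 to 1.35) and NGFR (ENSDARG00000089223, -3.55 to 4.26). Of 3648 recomputed values of named genes, 3377 kept direction and call, 254 lost the call, 8 gained it and 9 changed sign.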
